A study of Mus musculus with 7 samples.

Results

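The Hippo pathway is a kinase cascade that holds back tissue growth, and 10 of its genes were followed in mouse heart muscle cells at postnatal day 6 (P6) and postnatal day 30 (P30). The genes were the transcriptional coactivators Yap1 and Wwtr1 (the gene of TAZ), their DNA-binding partner Tead1, the TEAD cofactor Vgll4, the kinases Lats1, Lats2 and Stk3 (the gene of MST2), the scaffold Sav1, and the target genes Cyr61 (also called Ccn1) and Ctgf (also called Ccn2). They were taken by symbol, and all 10 were among the 23337 genes of the deposited count table. All 10 also passed the filter on low counts, which left 12561 genes for testing.

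In this cascade the MST kinases, held by SAV1, activate the LATS kinases, which work with the MOB1 adaptors. Active LATS kinases phosphorylate YAP and TAZ, which are then kept out of the nucleus or degraded. Unphosphorylated YAP and TAZ enter the nucleus, bind TEAD factors and switch on genes such as Ctgf and Cyr61, while VGLL4 competes with YAP for TEAD. In the heart, YAP is known for driving division of fetal and newborn cardiomyocytes, and the Hippo kinases for restraining it. Because the control acts on proteins, RNA counts carry no information on the phosphorylation or location of YAP and TAZ.

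The 4 P6 libraries and 3 P30 libraries came from cardiomyocytes of mice labelled Rosa-Tom/Cas9, meaning that each carried either a Rosa-Tom or a Rosa-Cas9 allele, and which mouse carried which is not stated. Both ages had received AAV9-cTNT-Cre, a virus in which the cardiac troponin T promoter drives Cre recombinase, on day 1, so that time since the virus and age cannot be told apart. The heart was perfused with collagenase, cells were purified by fluorescence-activated sorting, and cDNA was made by SMART-Seq v4 from 10 ng of RNA with 8 PCR cycles before Nextera XT library preparation from 500 pg. One treatment label gives collection at P14, whereas the titles, the age labels and the design text name P6 or P30, and these ages were taken. Whether each library is a separate animal is not stated. The p-values therefore set the difference between the ages only against the spread of these libraries within an age, which may be technical. No group without virus was analysed here.

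The libraries are named P6a to P6d and P30a to P30c after their columns. Total counts ran from 10594932 in P6a to 51427646 in P6c, and the P30 totals lay between 15555469 and 19368717. Values are CPM, counts scaled to the TMM-adjusted library size, and 3 counts corresponded to 0.0553 CPM in P6c and to 0.271 CPM in P6a. The lowest count of any of the 10 genes in any library was 53, for Sav1 in P6d, so no member was near that floor. The defining markers of the labelled cell type were abundant, with all 8 cardiomyocyte markers (Myh6, Tnnt2 and others) tested and a summed level of 81178 to 100757 CPM at P6 and 116108 to 120815 CPM at P30. Myh6 alone went from a mean of 33636 to 57300 CPM. In the edgeR test described below, 3 of the 8 were called higher and 5 were not called. That is 37.5% higher and 0% lower, beside 26.3% and 27.8% of all tested genes. P6a and P6b stood apart from P6c and P6d without overlap in 5 of the 10 genes (Wwtr1, Lats1, Lats2, Cyr61 and Ctgf) and in 48.3% of all tested genes.

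The 10 genes did not move together. By edgeR's quasi-likelihood test at a Benjamini-Hochberg adjusted p of 0.05 over all tested genes, Cyr61 and Yap1 were higher at P30, Wwtr1 and Stk3 were lower, and the other 6 were not called. Of all tested genes 26.3% were called higher and 27.8% lower, so calls for 2 of 10 genes in each direction (20%) were no more frequent than in the table at large. The median log2 fold change, P30 over P6, was 0.09 for the 10 genes and -0.02 for all tested genes. Libraries of the ages did not overlap for 5 of the 10 genes (Yap1, Wwtr1, Vgll4, Stk3 and Cyr61), against 56.6% of all tested genes. In bulk RNA of this kind, fewer cells with a transcript and less of it per cell cannot be told apart.

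**Figure D1:**
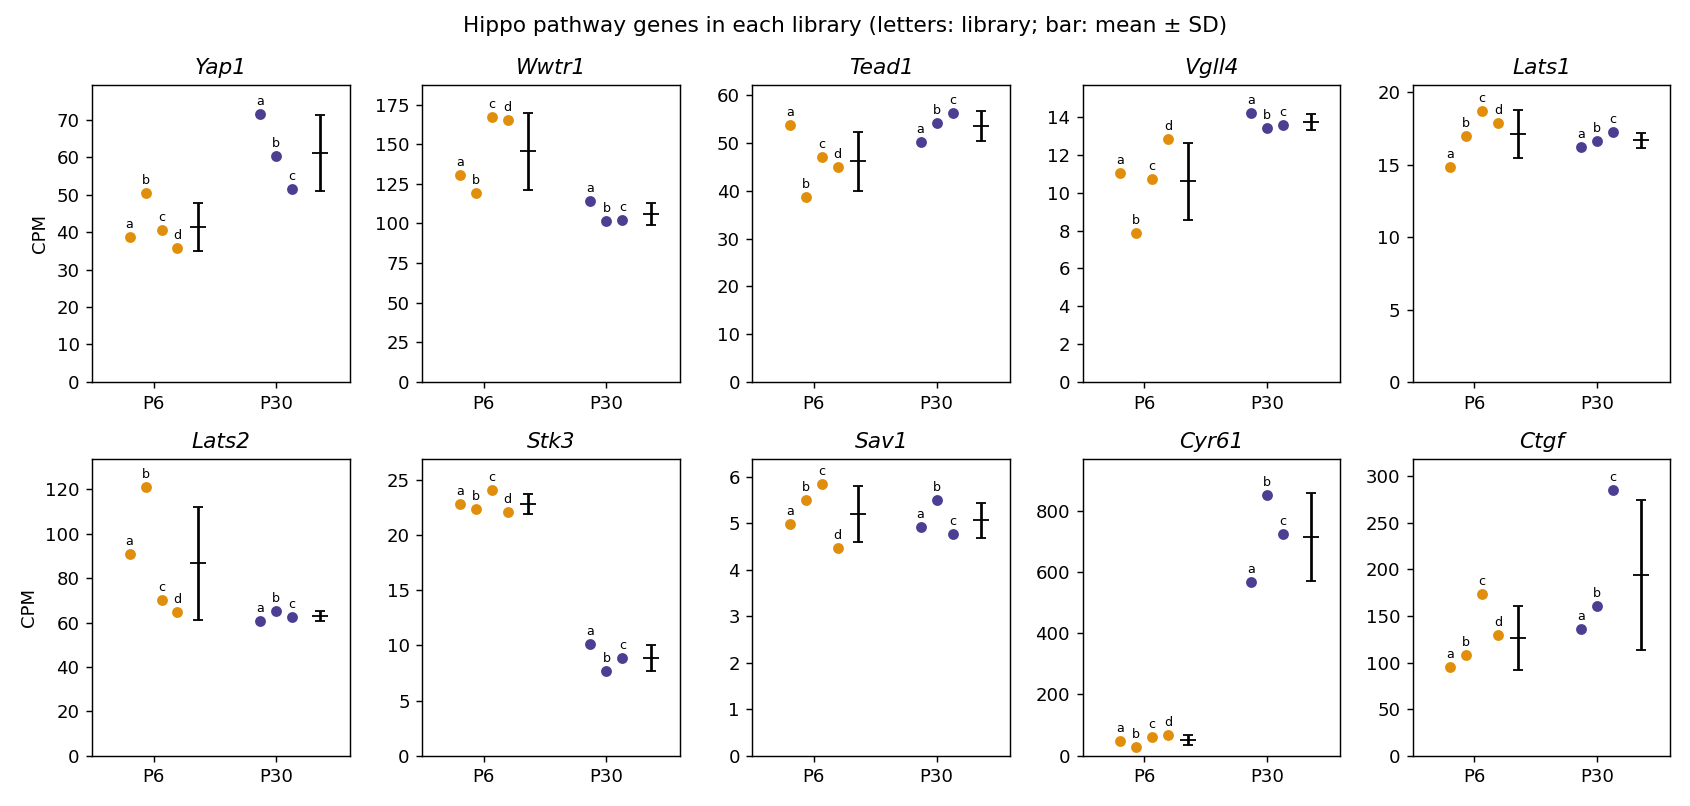
Each panel plots the CPM of 1 gene (vertical axis, starting at 0) in each P6 and P30 library, with a letter for each library and a bar for the mean ± SD. Cyr61 lay between 29.6 and 66.7 CPM at P6 and between 567 and 852 CPM at P30, Stk3 was lower in every P30 library than in any P6 library, and Lats1, Sav1 and Tead1 overlapped.

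The coactivators YAP and TAZ are related proteins that share TEAD partners, and their RNAs went opposite ways. In GENCODE M21 (GRCm38) Yap1 lies at chr9:7931999-8004596 and Wwtr1 at chr3:57455649-57575910, both on the minus strand. Yap1 was at 38.6, 50.4, 40.6 and 35.9 CPM in P6a to P6d and at 71.6, 60.3 and 51.5 CPM in P30a to P30c. Each P30 library was above each P6 library, although P30c and P6b were close. The mean rose from 41.4 ± 6.34 (SD, n = 4) to 61.1 ± 10.1 CPM (SD, n = 3), and the log2 fold change was 0.56 ± 0.15 (SE, edgeR adjusted p = 0.0094). With scaling by library totals instead of TMM the change in Yap1 was 0.38 (edgeR adjusted p = 0.069), and against P6a and P6b alone it was 0.47 (edgeR adjusted p = 0.057), so the call was lost in both.

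Wwtr1 was at 131, 119, 167 and 165 CPM in P6a to P6d and at 114, 102 and 102 CPM in P30a to P30c. All P30 libraries were below all P6 libraries, and P6a and P6b lay nearer to them than P6c and P6d did. The mean fell from 146 ± 24.4 (SD, n = 4) to 106 ± 7.05 CPM (SD, n = 3), and the log2 fold change was -0.46 ± 0.13 (SE, edgeR adjusted p = 0.015). Without P30b the Wwtr1 change was -0.43 (edgeR adjusted p = 0.057), and against P6a and P6b alone it was -0.22 (edgeR adjusted p = 0.12). Per kilobase of transcript, Yap1 made up 25.0%, 32.3%, 21.5% and 19.7% of the 2 coactivators' RNA in P6a to P6d, against 41.4%, 40.1% and 36.2% in P30a to P30c. These shares did not overlap between the ages, and their mean went from 24.6% ± 5.60 to 39.2% ± 2.71 (two-sided exact permutation p = 0.057 over 35 assignments of libraries to ages, 0.071 after adjustment over 5 shares). A share of this kind does not depend on library scaling.

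TEAD1 is the main DNA-binding partner of YAP in heart muscle, and Tead1 was not called. It was at 53.7, 38.7, 47.1 and 45.0 CPM in P6a to P6d and at 50.1, 54.2 and 56.3 CPM in P30a to P30c, with P6a inside the P30 range. Its log2 fold change was 0.22 ± 0.12 (SE, edgeR adjusted p = 0.15), and -0.06 with a trend over transcript length removed (edgeR adjusted p = 0.74). The related factor Tead2 went from 18.3 ± 1.92 (SD, n = 4) to 1.09 ± 0.409 CPM (SD, n = 3), with -4.06 ± 0.24 (SE) as the log2 fold change (edgeR adjusted p = 2.1e-06). Tead1 made up 39.2% ± 4.67 of the RNA of Tead1 to Tead4 per kilobase at P6 and 66.4% ± 6.03 at P30, with no overlap between the ages (two-sided exact permutation p = 0.029, the smallest 35 assignments can give, and 0.048 after adjustment over 5 shares). With no length scaling the 2 means were 66.2% and 87.2%. Tead3 had a log2 fold change of 0.36 ± 0.28 (edgeR adjusted p = 0.29), and Tead4 stayed under 1 CPM in every library and was not tested.

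VGLL4 is a cofactor that binds TEAD in competition with YAP. Vgll4 was at 11, 7.89, 10.7 and 12.8 CPM in P6a to P6d and at 14.2, 13.4 and 13.6 CPM in P30a to P30c. Every P30 library was above every P6 library, but P6d came close to them, and the log2 fold change of 0.38 ± 0.17 (SE) missed the threshold (edgeR adjusted p = 0.084). Without P6d it was 0.48 (edgeR adjusted p = 0.042), and with the length trend removed it was also 0.48 (edgeR adjusted p = 0.032), and Vgll4 passed in both, as it did against P6a and P6b alone (0.58, edgeR adjusted p = 0.038). Vgll1, Vgll2 and Vgll3 were too low to be tested. In all, 6 of the 10 genes of YAP, TAZ, the TEAD factors and the VGLL cofactors were tested, of which 1 rose (Yap1) and 2 fell (Wwtr1 and Tead2), with a median log2 fold change of 0.29. These shares, 16.7% higher and 33.3% lower, stand beside 26.3% and 27.8% of all tested genes.

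Sequence upstream of these genes is shown because TEAD factors bind a short motif, GGAATG, whose reverse complement is CATTCC. Both strands of the 250 bases before each start in RefSeq (GRCm38.p6) were searched, and starts were found for 7 of the 10 genes (not Tead1, Stk3 or Ctgf). Of those 7 genes 5 held the motif (Yap1, Wwtr1, Vgll4, Sav1 and Cyr61), and Lats1 and Lats2 did not in this window. For comparison, 14.4% of 27025 genes and 12.6% of 32851 promoters held it. The 54-base windows below read 5′ to 3′ on the strand of the gene, with the motif in capitals.
Yap1: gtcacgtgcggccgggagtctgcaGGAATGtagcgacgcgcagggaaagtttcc
Wwtr1: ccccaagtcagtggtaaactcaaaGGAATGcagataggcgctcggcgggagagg
Vgll4: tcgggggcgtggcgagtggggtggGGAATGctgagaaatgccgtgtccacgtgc
Sav1: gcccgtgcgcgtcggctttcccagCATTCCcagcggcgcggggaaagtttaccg
The windows lie on the minus strand at chr9:8004708-8004761 for Yap1, chr3:57576017-57576070 for Wwtr1, chr6:114969256-114969309 for Vgll4 and chr12:69987079-69987132 for Sav1. The motif began 141, 136, 82 and 106 bases before the start in that order. Yap1 rose, Wwtr1 fell and Vgll4 and Sav1 were not called, so the 4 genes shown had no common direction. A match of letters is not a measured binding site.

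Among the kinases and adaptors, STK3 and its paralog STK4 (MST1) are the kinases at the top of the core cascade. Stk3 spans chr15:34875496-35178921 on the minus strand, with 11 exons in its longest coding transcript (GENCODE M21, GRCm38). Stk3 was at 22.8, 22.3, 24.1 and 22.1 CPM in P6a to P6d and at 10.1, 7.69 and 8.84 CPM in P30a to P30c. The P6 values lay within a narrow band, and each P30 value was below all of them. The mean fell from 22.8 ± 0.901 (SD, n = 4) to 8.88 ± 1.20 CPM (SD, n = 3), and the log2 fold change was -1.36 ± 0.13 (SE, edgeR adjusted p = 3.7e-05). Stk3 was called in every fit run, including all 7 that left out 1 library. Stk4 went from 39.4 ± 2.25 to 33.0 ± 3.97 CPM, a log2 fold change of -0.25 ± 0.11 that missed the threshold (edgeR adjusted p = 0.079), although its libraries did not overlap between the ages. Without P30a the Stk4 change was -0.35 and passed (edgeR adjusted p = 0.046). Stk4 also passed with library totals (-0.43, edgeR adjusted p = 0.0087) and with the length trend removed (-0.35, edgeR adjusted p = 0.018).

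Per kilobase, Stk3 made up 48.9%, 51.3%, 53.0% and 50.8% of the RNA of both MST kinases in P6a to P6d, against 32.8%, 29.7% and 35.2% in P30a to P30c. The mean share went from 51.0% ± 1.69 to 32.6% ± 2.78 (two-sided exact permutation p = 0.029, the smallest possible here, and 0.048 after adjustment over 5 shares). With no length scaling the means were 36.7% and 21.2%.

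The LATS kinases phosphorylate YAP and TAZ directly. Lats1 was at 14.8, 17.0, 18.7 and 17.9 CPM in P6a to P6d and at 16.2, 16.6 and 17.3 CPM in P30a to P30c. The P30 values lay inside the P6 range, with a log2 fold change of -0.04 ± 0.12 (SE, edgeR adjusted p = 0.80). Lats2, which is itself a target gene of YAP, was at 90.8, 121, 70.3 and 64.7 CPM in P6a to P6d and at 60.8, 65.1 and 62.7 CPM in P30a to P30c. P6a and P6b were high, whereas P6d lay within the P30 range.

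The log2 fold change of Lats2 was -0.47 ± 0.20 (SE, edgeR adjusted p = 0.069). It was -0.74 against P6a and P6b alone (edgeR adjusted p = 0.003) and -0.12 against P6c and P6d alone (edgeR adjusted p = 0.29), so the size of the Lats2 difference depended on which P6 libraries were used. Lats2 also passed with library totals (-0.65, edgeR adjusted p = 0.025), with no filter (edgeR adjusted p = 0.029) and with the length trend removed (-0.55, edgeR adjusted p = 0.021). It passed without P6c (-0.56, edgeR adjusted p = 0.043) and without P6d (-0.59, edgeR adjusted p = 0.022), and was -0.26 without P6b (edgeR adjusted p = 0.11). Lats1 made up 13.1% ± 3.80 of the RNA of both LATS kinases per kilobase at P6 and 16.1% ± 0.510 at P30 (two-sided exact permutation p = 0.37). In the annotation Lats2 shares 2955 exon bases with Gm49361 on the same strand, which is not in the count table.

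The scaffold Sav1 was the lowest of the 10 genes per kilobase. It was at 4.98, 5.49, 5.84 and 4.47 CPM in P6a to P6d and at 4.91, 5.49 and 4.77 CPM in P30a to P30c, with full overlap and a log2 fold change of -0.05 ± 0.19 (SE, edgeR adjusted p = 0.84). Sav1 shares 1336 exon bases with Atl1 on the opposite strand, and since no source used here gives the strand setting of the counting, reads of the 2 genes may not be separated. Atl1, the gene of a membrane-shaping GTPase, fell by 1.09 on the log2 scale (edgeR adjusted p = 0.0021). The MOB1 adaptors, which bind and activate the LATS kinases, moved in opposite directions. Mob1a rose from 5.20 ± 1.32 to 12.7 ± 2.27 CPM, a log2 fold change of 1.30 ± 0.22 (edgeR adjusted p = 0.00078). Mob1b fell from 37.8 ± 6.77 to 20.1 ± 4.66 CPM, a log2 fold change of -0.91 ± 0.19 (edgeR adjusted p = 0.0027). Of the 7 kinase and adaptor genes, 1 rose and 2 fell (Mob1b and Stk3), and their median log2 fold change was -0.25. That is 14.3% higher and 28.6% lower, beside 26.3% and 27.8% of all tested genes.

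**Figure D2:**
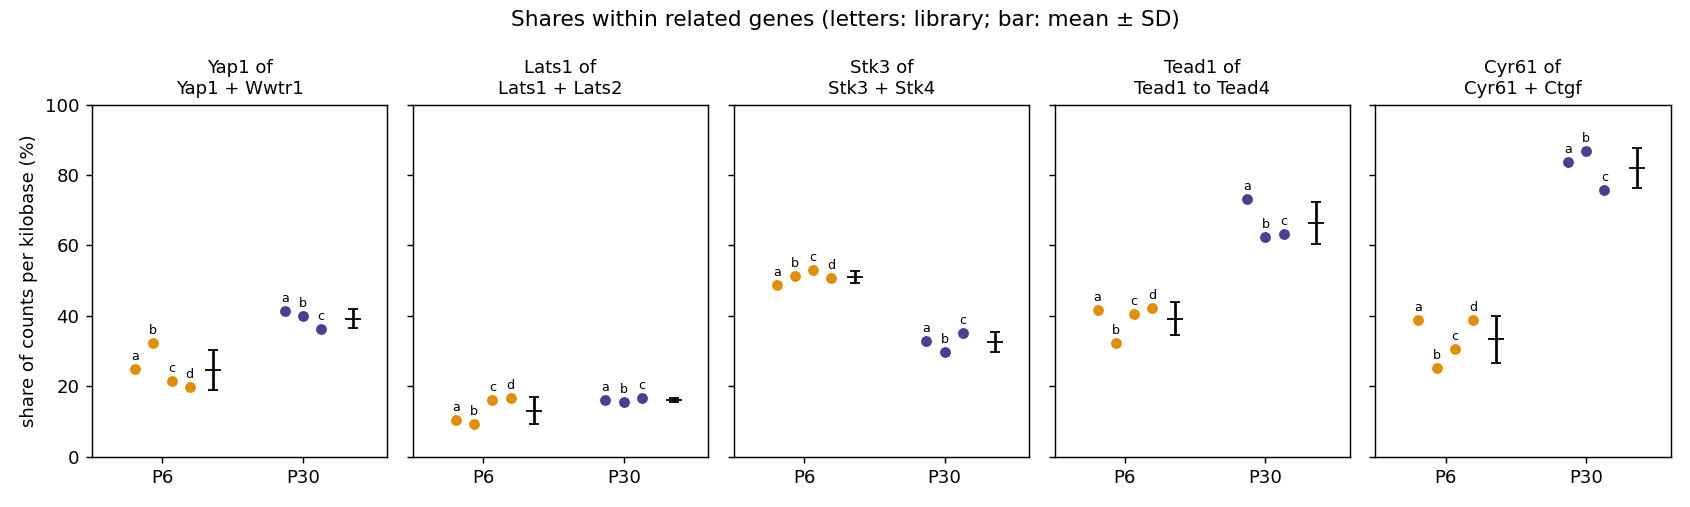
Each panel plots, per library, the share of 1 gene in the summed RNA of its paralogs or of the target pair (percent of CPM per kilobase of transcript), with letters for libraries and the mean ± SD as a bar. The Stk3, Tead1 and Cyr61 shares did not overlap between the ages, nor did the Yap1 share, and the Lats1 share overlapped.

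RNAs of proteins upstream of the kinases or bound to YAP were mostly higher where they were called. Of 24 listed genes 23 were tested (not Wwc1), 10 rose and 3 fell, and the median log2 fold change was 0.33. That is 43.5% higher and 13% lower, beside 26.3% and 27.8% of all tested genes. The libraries of 12 of the 23 did not overlap between the ages, which is no more frequent than the 56.6% of all tested genes. Frmd6, a cortical protein that promotes Hippo signalling, rose from 34.5 ± 6.46 to 79.2 ± 8.08 CPM, a log2 fold change of 1.20 ± 0.15 (edgeR adjusted p = 0.00014). Amotl1, an angiomotin that binds YAP at cell junctions, rose from 23.2 ± 3.96 to 44.2 ± 3.59 CPM, a log2 fold change of 0.92 ± 0.14 (edgeR adjusted p = 0.00049). Its relative Amot and the atypical cadherin genes Fat4 and Dchs1, picked out after their values were seen, had log2 fold changes of 1.79, 2.22 and 1.40. Fat4 was at 2.25 CPM in P6c and at 0.422 to 0.832 CPM in the other P6 libraries, and without P6c its log2 fold change was 3.01. Tjp1, the gene of the junction protein ZO-1, was called at 0.41 ± 0.15 (edgeR adjusted p = 0.038), but its libraries overlapped and the call was lost in every fit that left out 1 library except that without P6b.

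The MAP4K kinases act beside the MST kinases on LATS. Map4k3 fell from 65.0 ± 2.99 to 36.5 ± 6.52 CPM, a log2 fold change of -0.83 ± 0.13 (edgeR adjusted p = 0.00046), and Map4k5 fell from 67.7 ± 6.26 to 47.7 ± 5.88 CPM, one of -0.50 ± 0.12 (edgeR adjusted p = 0.0052). Their relatives Mink1 and Tnik, also picked out after their values were seen, were called higher with log2 fold changes of 1.01 and 0.97. Wwc2, a relative of the scaffold KIBRA, was called lower at -0.34 ± 0.11 (edgeR adjusted p = 0.03), a call lost without P6a, P30a, P30b or P30c (edgeR adjusted p of 0.052 to 0.097).

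Proteins that restrain the Hippo kinases are chiefly those of the STRIPAK phosphatase complex. All 17 listed genes were tested, 2 rose and 6 fell, and the median log2 fold change was -0.09. That is 11.8% higher and 35.3% lower, beside 26.3% and 27.8% of all tested genes. Strn3, a STRIPAK scaffold, rose from 186 ± 14.3 to 298 ± 15.3 CPM, a log2 fold change of 0.68 ± 0.09 (edgeR adjusted p = 0.00018). Nuak2, a kinase that inhibits LATS and is also a YAP target gene, rose from 0.975 ± 0.223 to 5.70 ± 1.11 CPM, one of 2.54 ± 0.27 (edgeR adjusted p = 5.7e-05). Slmap, whose protein links STRIPAK to the MST kinases, was called lower at -0.55 ± 0.16 (edgeR adjusted p = 0.017) and Fam40b (Strip2), a STRIPAK core gene, at -0.46 ± 0.13 (edgeR adjusted p = 0.012). Both calls were lost without P30b, with an edgeR adjusted p of 0.063 for Slmap and 0.051 for Fam40b, and only 3 of the 17 were lower in that fit. Mark3 was called lower at -0.22 ± 0.08 (edgeR adjusted p = 0.042), a call that DESeq2 did not make (adjusted p = 0.056) and that was lost without P6a, P6c or any 1 of the P30 libraries.

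**Figure D3:**
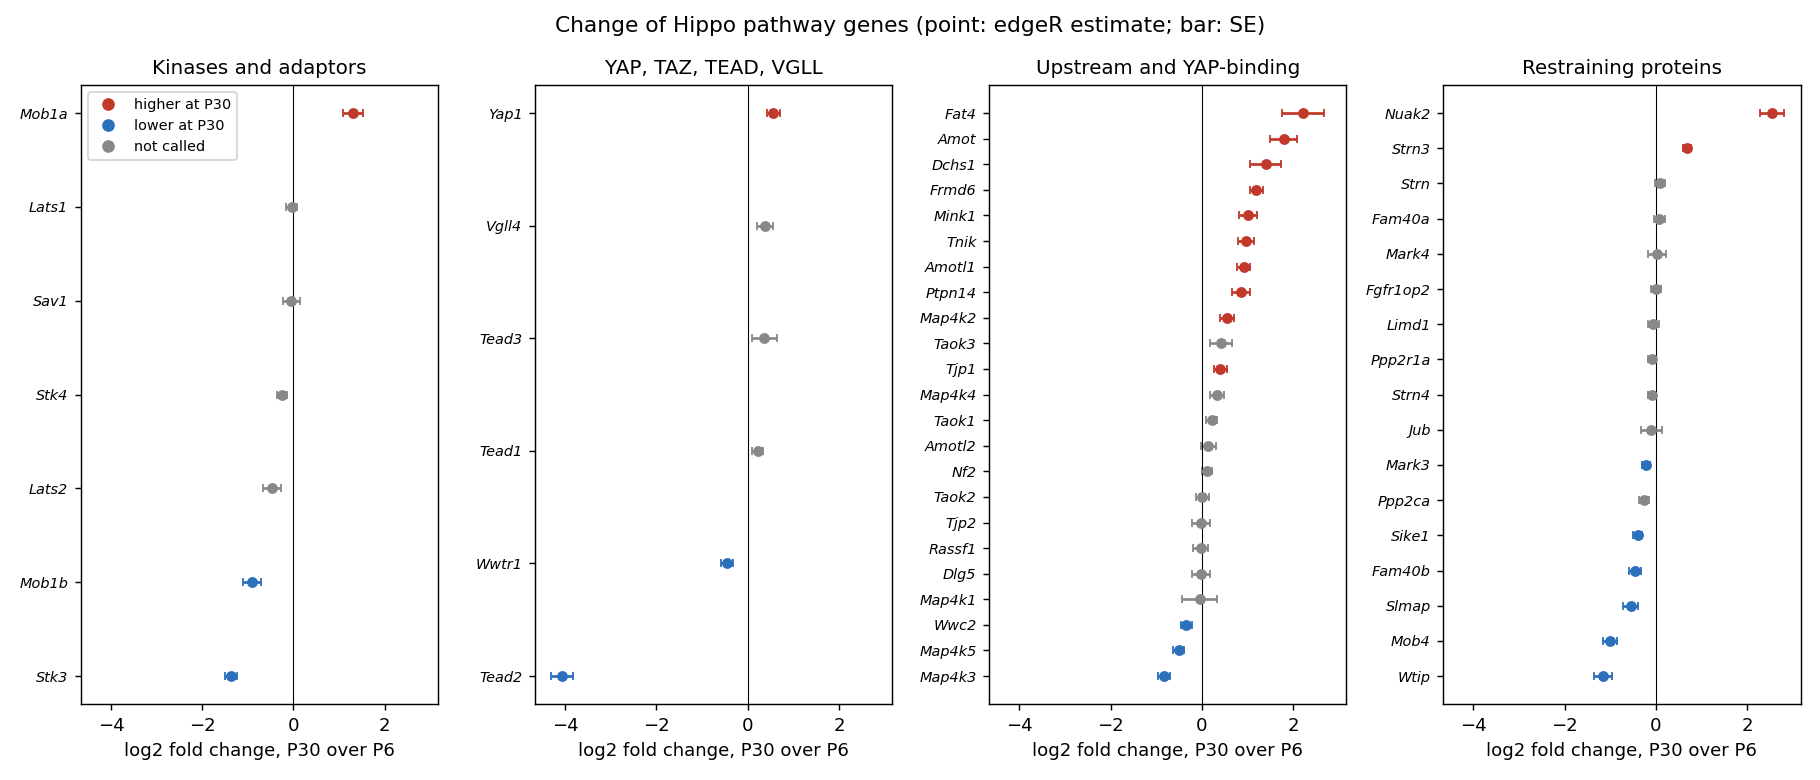
The 4 panels plot the log2 fold change, P30 over P6, of tested genes (point, edgeR estimate) with its SE (bar), for kinases and adaptors, for YAP, TAZ, TEAD and VGLL genes, for upstream and YAP-binding genes, and for restraining proteins. Red marks genes called higher, blue genes called lower and grey genes not called, and each panel holds genes of both directions, from -4.06 for Tead2 to 2.54 for Nuak2.

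The target genes Cyr61 and Ctgf encode secreted matricellular proteins of the CCN family and are common readouts of YAP and TAZ, and they are induced by other signals as well. In the GENCODE M21 annotation (GRCm38) Cyr61 spans chr3:145646976-145649981 on the minus strand in 5 exons, and Ctgf spans chr10:24595442-24598683 on the plus strand. Cyr61 was at 48.7, 29.6, 62.1 and 66.7 CPM in P6a to P6d and at 567, 852 and 723 CPM in P30a to P30c. The lowest P30 library was far above the highest P6 library. The mean rose from 51.8 ± 16.7 (SD, n = 4) to 714 ± 143 CPM (SD, n = 3), 13.8-fold, and the log2 fold change was 3.79 ± 0.26 (SE, edgeR adjusted p = 5e-06). Cyr61 was called in every fit run, and the log2 fold change was 4.23 against P6a and P6b alone and 3.46 against P6c and P6d alone.

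Ctgf was at 95.1, 109, 174 and 130 CPM in P6a to P6d and at 136, 161 and 286 CPM in P30a to P30c. P30c was high, and P6c lay above P30a and P30b. The log2 fold change was 0.61 ± 0.27 (SE), which missed the threshold (edgeR adjusted p = 0.077), and it was 0.23 without P30c (edgeR adjusted p = 0.41). It passed without P6c (0.80, edgeR adjusted p = 0.029) without P30a (0.82, edgeR adjusted p = 0.036), with no filter (edgeR adjusted p = 0.024) and in DESeq2 (0.63, adjusted p = 0.037). Against P6a and P6b alone it was 0.95 (edgeR adjusted p = 0.025), and against P6c and P6d alone 0.33 (edgeR adjusted p = 0.36). The authors' deposited table gave Ctgf the same 0.63 and 0.037. In that table Yap1, Wwtr1, Stk3 and Cyr61 were also called, with log2 fold changes of 0.58, -0.44, -1.35 and 3.80, and the other 5 members were not. In the annotation Ctgf shares 352 exon bases with the antisense transcript Gm15270, and Yap1 shares 116 with Gm20416, neither of which is in the count table.

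Per kilobase, Cyr61 made up 38.7%, 25.1%, 30.6% and 38.8% of the summed RNA of both target genes in P6a to P6d, against 83.8%, 86.7% and 75.7% in P30a to P30c. The mean share went from 33.3% ± 6.66 to 82.1% ± 5.67 (two-sided exact permutation p = 0.029, the smallest possible here, and 0.048 after adjustment over 5 shares), so the balance between the 2 target genes turned over. Of the CCN family, 4 of 6 genes were tested, and the 2 others called both fell. With Cyr61, 25% of the 4 were called higher and 50% lower, beside 26.3% and 27.8% of all tested genes. Wisp1 fell from 42.2 ± 3.57 to 10.7 ± 3.89 CPM, a log2 fold change of -1.98 ± 0.23 (edgeR adjusted p = 8.6e-05), and Nov fell from 2.10 ± 0.780 to 0.405 ± 0.0795 CPM, one of -2.41 ± 0.43 (edgeR adjusted p = 0.0012). Wisp2 and Wisp3 were too low to be tested. The CCN genes called higher were 3 in DESeq2 (adjusted p = 0.018 for Wisp2), with no filter and against P6a and P6b alone, where Ctgf and Wisp2 joined Cyr61. They were 2 against P6c and P6d alone and without P6c, P30a or P30c.

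The 250 bases before the start of Cyr61 are shown whole because this gene had the largest change of the 10. They lie on the minus strand at chr3:145649986-145650235 (GRCm38.p6, RefSeq) and are printed 5′ to 3′ with the TEAD motif, read as CATTCC 103 bases before the start, in capitals.
Cyr61: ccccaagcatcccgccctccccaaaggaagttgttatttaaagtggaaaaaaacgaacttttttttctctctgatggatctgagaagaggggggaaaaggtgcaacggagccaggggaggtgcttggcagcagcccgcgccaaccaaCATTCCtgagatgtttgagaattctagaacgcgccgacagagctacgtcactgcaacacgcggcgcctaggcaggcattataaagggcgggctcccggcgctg
No AP-1 motif (TGANTCA, found in 7.82% of genes) and no CArG box (the motif of SRF, found in 1.62% of genes) lay in this window of Cyr61 or of the other 6 members with a start. Ankrd1, a target gene that fell, held the TEAD motif 2 times, shown as 30-base stretches on its own strand.
Ankrd1, 210 bases before the start: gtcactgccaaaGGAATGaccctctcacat
Ankrd1, 123 bases before the start: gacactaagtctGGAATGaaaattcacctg
These stretches lie on the minus strand at chr19:36120037-36120066 and chr19:36119950-36119979. Of 22 target genes 15 had a start in the RefSeq table and 6 of those held the motif, namely 3 of 7 called higher, 1 of 3 called lower and 2 of 4 not called.

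The 22 target genes are a published signature of YAP and TAZ activity across cancers, and 20 were tested (not Fjx1 or Foxf2). Of these 10 rose and 5 fell, and the median log2 fold change was 0.71. That is 50% higher and 25% lower, beside 26.3% and 27.8% of all tested genes. The libraries of 15 of the 20 did not overlap between the ages, against 56.6% of all tested genes. Lats2, Ctgf and Cyr61 belong to this list as well as to the 10 genes, and Amotl2, Ptpn14 and Nuak2 also stand in other lists above. Arhgef17, the gene of a RhoA activator, rose from 45.4 ± 21.3 to 110 ± 6.84 CPM, a log2 fold change of 1.27 ± 0.29 (edgeR adjusted p = 0.0045). F3, the gene of tissue factor, which starts blood clotting, rose from 26.5 ± 3.66 to 46.5 ± 7.91 CPM, one of 0.81 ± 0.15 (edgeR adjusted p = 0.0013).

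Ankrd1 encodes a stretch-responsive repeat protein of the sarcomere and nucleus and was the most counted gene of the list. It was at 1678, 1639, 1663 and 1667 CPM in P6a to P6d and at 697, 1031 and 1185 CPM in P30a to P30c. The P6 values were nearly equal and the P30 values were spread, all below them. The log2 fold change was -0.77 ± 0.15 (SE, edgeR adjusted p = 0.0022). Ccdc80, an extracellular matrix gene, fell from 50.7 ± 10.9 to 18.2 ± 4.28 CPM, a log2 fold change of -1.48 ± 0.21 (edgeR adjusted p = 0.00028). Asap1, the gene of an ARF GTPase-activating protein, was called lower at -0.38 ± 0.13 (edgeR adjusted p = 0.033), a call lost without P6c, P6d, P30a, P30b or P30c (edgeR adjusted p of 0.067 to 0.11). The extremes of the list after Cyr61, picked out after their values were seen, were Dock5 at 3.0 and Rbms3 at -2.14.

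**Figure D4:**
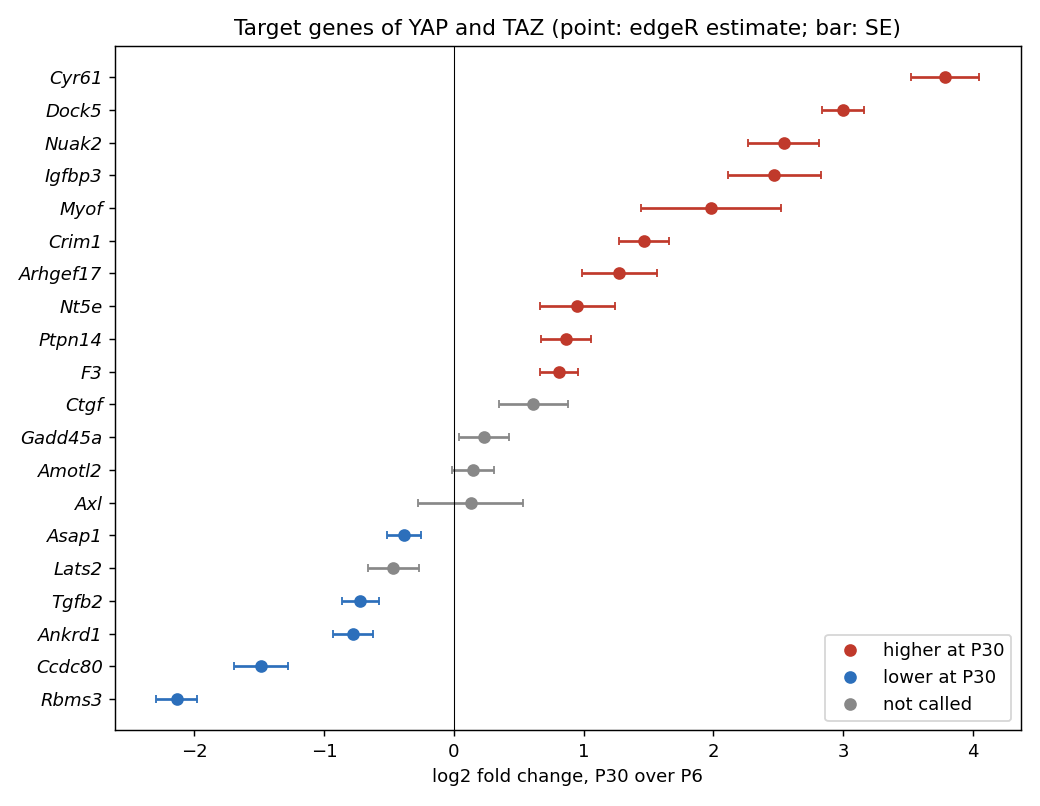
The plot gives the log2 fold change, P30 over P6 (horizontal axis), of the 20 tested target genes (point, edgeR estimate) with its SE (bar), coloured by call. Cyr61 at 3.79 and Dock5 at 3.0 stand at the top, Ccdc80 and Rbms3 at the bottom, and Ctgf lies among the 5 genes not called.

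Other gene groups moved with age in the same libraries as Cyr61. Immediate early genes, which also respond to tissue dissociation, were higher in 14 of 24 tested and lower in 1 (Jund, -0.69), with a median log2 fold change of 1.31. That is 58.3% higher and 4.17% lower, beside 26.3% and 27.8% of all tested genes, and 3 were lower against P6a and P6b alone and 2 with library totals. Their summed level was 1208, 1259, 708 and 732 CPM in P6a to P6d, against 2577, 4164 and 2506 CPM in P30a to P30c. Dusp1, Jun and Btg2, the most counted of those called higher, had log2 fold changes of 2.5, 1.65 and 2.73. P30b was highest both in this sum and in Cyr61, whereas among the P6 libraries the sum was higher in P6a and P6b and Cyr61 was higher in P6c and P6d. That P6 order of the sum lay largely in Nr4a1, at 421, 475, 63.4 and 63.5 CPM in P6a to P6d. Nr4a1 was not called (edgeR adjusted p = 0.87). Within P6, Btg2 had the order of the sum, at 85.1, 91.0, 52.4 and 46.8 CPM in P6a to P6d. Jun went the other way, at 116, 116, 168 and 164 CPM, as Cyr61 did. Dusp1 had neither order, at 120, 77.9, 88.1 and 84.6 CPM, so genes of this list differed within P6.

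Endothelial cells also express Cyr61 and Ctgf, and 9 of 10 endothelial markers were called higher and none lower (edgeR), beside 26.3% and 27.8% of all tested genes. The marker without a call, Cldn5, had a log2 fold change of 0.89 (edgeR adjusted p = 0.086). Their summed level was 109, 182, 194 and 146 CPM in P6a to P6d, against 466, 669 and 326 CPM in P30a to P30c, and Kdr, the gene of VEGF receptor 2, had the largest log2 fold change of the list at 2.42. Pecam1 and Tie1 had log2 fold changes of 1.20 and 1.59. The call of Egfl7 was lost with library totals, without P30b and against P6a and P6b alone, and that of Emcn was lost without P30b. Of the P30 libraries, P30b held the highest endothelial sum and the highest Cyr61, and P30c held the lowest endothelial sum and the highest Ctgf. Of the P6 libraries, P6c held the highest endothelial sum and the highest Ctgf, and P6d the highest Cyr61.

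Macrophage and blood cell markers were called higher in 7 of 8 tested (3 of the 11 listed were too low to test), with sums of 2.53 to 5.57 CPM at P6 and 14.7 to 44.3 CPM at P30. Some stood near the floor at P6, with counts of 1, 16, 3 and 0 for Ptprc and 3, 1, 3 and 0 for Cx3cr1. The call of Cd68 (edgeR adjusted p = 0.043) was lost in DESeq2 and in 5 fits without 1 library, among others. That of Ptprc was lost without P30b and against P6a and P6b alone. The other calls in this list were kept in every fit. Of the fibroblast markers 9 of 10 were tested, none was higher and 1 was lower (Postn), with sums of 164 to 406 CPM at P6 and 145 to 334 CPM at P30. Of 9 smooth muscle and pericyte markers 4 were higher and 1 lower (sums of 1458 to 2550 and 1374 to 2220 CPM). These sums were mostly Acta2 (mean 1456 CPM at P6 and 1186 at P30) and Abcc9 (410 and 423), neither of which was called. The 4 called higher were Pdgfrb, Rgs5, Kcnj8 and Myh11, with log2 fold changes of 1.53, 1.30, 1.81 and 1.38. The 1 called lower was Cnn1, at -3.82. Calls of Rgs5 and Myh11 were lost in some fits that left out 1 library. Of 4 tested epicardial markers none was higher and 1 was lower (Tbx18). The shares called higher were 87.5%, 0%, 44.4% and 0% for blood cell, fibroblast, mural and epicardial markers, in that order. Those called lower were 0%, 11.1%, 11.1% and 25%, beside 26.3% higher and 27.8% lower of all tested genes. No marker of these lists was at 0 in every library. The part of dissociation and of other cell types in the differences of Cyr61 and the other 9 genes was not tested.

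**Figure D5:**
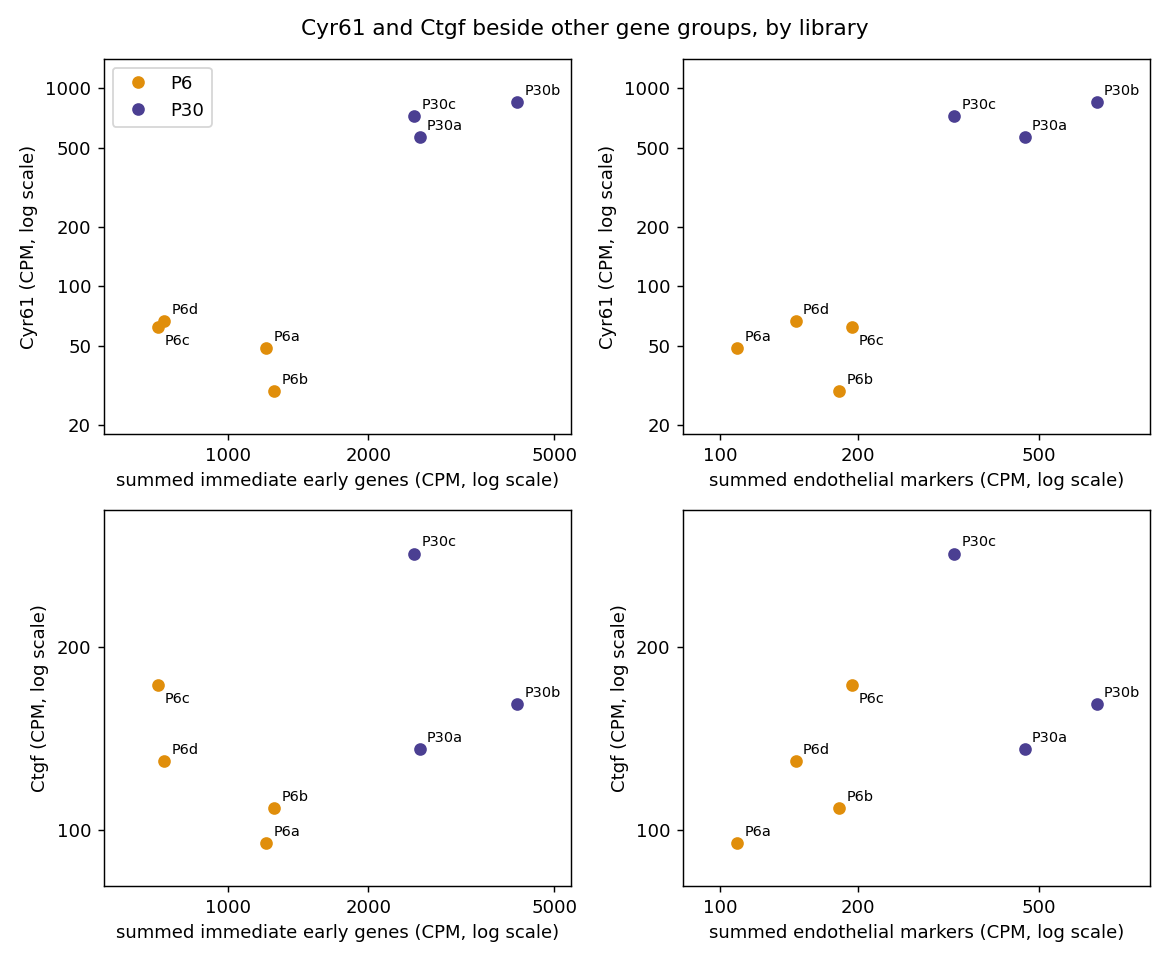
The upper panels plot Cyr61 and the lower panels Ctgf (CPM, log scale) against the summed CPM of immediate early genes (left) and endothelial markers (right, log scale), 1 point for each library. The P30 libraries lie above and to the right of the P6 libraries for Cyr61, whereas for Ctgf the ages overlap on the vertical axis.

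Levels of different genes were compared per kilobase of transcript. At P6 the order ran from Ctgf at 50.9 ± 13.8 CPM per kilobase through Wwtr1 (31.0 ± 5.19), Cyr61 (25.6 ± 8.25), Lats2 (16.7 ± 4.91), Yap1 (9.92 ± 1.52), Stk3 (7.84 ± 0.309), Vgll4 (5.23 ± 1.01), Tead1 (4.63 ± 0.624) and Lats1 (2.37 ± 0.232) to Sav1 (2.06 ± 0.237). Neighbours whose libraries overlapped in this order were Wwtr1 and Cyr61, Cyr61 and Lats2, Vgll4 and Tead1, and Lats1 and Sav1. At P30 Cyr61 led with 354 ± 70.6, followed by Ctgf (78.0 ± 32.2), Wwtr1 (22.5 ± 1.5), Yap1 (14.7 ± 2.42), Lats2 (12.1 ± 0.418), Vgll4 (6.78 ± 0.203), Tead1 (5.37 ± 0.314), Stk3 (3.05 ± 0.413), Lats1 (2.32 ± 0.0718) and Sav1 (2.0 ± 0.152). Yap1 and Lats2 were the only neighbours that overlapped there. Cyr61 went from the third place to the first, and Stk3 from the sixth to the eighth.

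Genes with the pattern most like that of Cyr61 over the 7 libraries, by Pearson correlation of log2 CPM among 8222 genes with a mean of at least 10 CPM, were Hsp90ab1 (0.998), Asrgl1, Bfar, Rtn4r and Coq9 (0.995 to 0.996). Hsp90ab1, the gene of a heat shock chaperone, went from 817 ± 55.2 to 1352 ± 76.6 CPM, a log2 fold change of 0.73 ± 0.08 (edgeR adjusted p = 9.4e-05), so the pattern was alike and the size was not. For Ctgf the closest were Hsd17b12 (0.937), Isy1 (0.922), Kcnk3 (0.917), Naca (0.915) and Sbno1 (0.913). The libraries fall into 2 ages and share their depth and scaling across genes, so these coefficients are a description of 7 points.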

How the data were processed

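The authors deposited raw counts per gene for 7 libraries, made with CASAVA 1.8, STAR 2.5.3a and featureCounts of Subread 1.5.2 on mm10, per the submitters' processing notes. Which annotation, strand setting and handling of multi-mapping reads they used is not given in the sources used here. They also deposited results of DESeq2 for the same 2 ages. There, per the file headers, baseMean is a mean signal of scaled counts deposited by the authors, the fold change and its standard error are log2 values from the authors, the Wald statistic is a score from the authors, and raw and adjusted p-value columns deposited by the authors follow. Library columns took their group from the age they name.

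The test used edgeR 4.0.16 under R 4.3.3, with low counts removed by filterByExpr within age, TMM scaling and a quasi-likelihood fit of age without a covariate, and Benjamini-Hochberg adjustment ran over 12561 genes at a threshold of 0.05. Fold changes are given as log2 of P30 over P6 with SE, and levels are mean ± SD of CPM. Total counts per library set the precision. Transcript lengths came from GENCODE mouse release M21 (GRCm38) for 22877 of 23337 genes, by the longest coding transcript, and Fam40b, Fam40a, Jub and Emr1 were matched through older symbols. Shares were tested by an exact permutation test over libraries. The scripts were tested on simulated data.

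The 10 genes, 14 further lists and tests were chosen with earlier results of these data known. One marker list is not reported here. Named genes were the 10 members, the kinase, TEAD, VGLL and CCN genes, up to 3 called genes of highest mean CPM per direction in every other list, and the 5 genes closest to Cyr61 and to Ctgf. Alternatives were DESeq2 1.42.0, library totals, no filter, a transcript length trend removed by offsets, leaving out each library, and, chosen after seeing the data, P6a with P6b or P6c with P6d alone against P30.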

Additional observations from a re-analysis of the deposited data

Results flagged for a closer look

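The 82 groups of 4 P6 libraries examined were those of genes named here, of list sums and of shares. In 4 of these groups 1 library stood apart from the other 3 by Dixon's test at the 95% level, and chance alone gives about 1 in 20. Stk4, the paralog of Stk3, was at 42.8 CPM in P6a and between 38.1 and 38.4 CPM in the others. Postn, a matrix gene of activated fibroblasts, was at 52.1 CPM in P6b against 33.3 to 36.5 CPM. Bfar was at 52.3 CPM in P6b against 59.3 to 60.6 CPM, and Rtn4r was at 5.56 CPM in P6b against 8.53 to 9.05 CPM. None of the 10 Hippo genes was among them, and groups of 3 P30 libraries were not examined in this way.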

How the results depend on the processing

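No paired analysis was possible because the count columns carry letters that the labels tie to no replicate number. Over the 10 members and 13 other settings, 108 of 130 values kept direction and side of the threshold, 4 lost the call, 14 gained one and 4 changed sign with no call on either side. These were Tead1 (-0.056, length trend removed), Lats1 (0.0801 against P6a and P6b alone, and 0.0044 without P6c in a range of -0.103 to 0.0044 over fits without 1 library) and Sav1 (0.0114 without P6c in a range of -0.12 to 0.0114). With library totals, 2408 genes were higher and 4658 lower (3307 and 3490 with TMM) and the median of all genes moved to -0.20. There 1 member was higher (Cyr61), 4 kinase genes were lower and 0 of the YAP, TAZ, TEAD and VGLL genes were higher. With the length trend removed, 4 kinase genes were lower and 2 of the YAP, TAZ, TEAD and VGLL genes were higher. Against P6a and P6b alone, 1 of these was lower, as were 3 restraining genes. Leaving out 1 library gave 2 to 3 members higher and 1 to 3 lower, 1 to 2 YAP, TAZ, TEAD and VGLL genes higher and 1 to 2 lower, and 3 to 7 restraining genes lower, with the lowest counts of lower genes without P30b. Without length scaling the difference in share, P30 minus P6, was -15.5 percentage points for Stk3 and 20.9 for Tead1. Among the other 52 genes followed, 6 values changed sign, namely Sbno1 (-0.0092, length trend removed), Isy1 (-0.0088, library totals) and Naca (-0.0766 with library totals, -0.0576 with the length trend removed, -0.0326 against P6c and P6d alone, and -0.0323 without P30c in a range of -0.0323 to 0.187). The cause of these changes was not tested. DESeq2 gave 3651 genes higher and 3428 lower. The total of 10594932 counts in P6a makes that library the least precise.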
